A study of Homo sapiens with 12 samples.

Results

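The ADAM and ADAMTS proteases are 2 related families of zinc metalloproteinases, and their messenger RNA was followed here in 2 triple-negative breast cancer cell lines with altered MEK5 and ERK5 signalling. The members were all protein-coding genes whose symbol is ADAM or ADAMTS followed by a number, which gave 37 of 17665 protein-coding genes and of 32152 genes in all. They comprised 18 ADAM and 19 ADAMTS genes. Of the 37 members, 27 reached 0.5 RPKM (reads per kilobase of gene model, scaled to the total reads of the library) in at least 2 libraries and were tested, 13 ADAM and 14 ADAMTS genes. The broadly expressed sheddases ADAM9, ADAM10, ADAM15 and ADAM17 passed no fold threshold against the parental controls of either line. ADAM8, the member with the highest mean RPKM in MDA-MB-231 parental controls, fell in MEK5DD of that line. Some members changed in different directions in the lines. In libraries labelled ERK5-ko, ADAMTS14 was 2.26-fold higher in MDA-MB-231 but 2.97-fold lower in Hs-578T.

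The study asked how loss of ERK5, a mitogen-activated protein kinase that is encoded by MAPK7, alters the extracellular matrix genes of triple-negative breast cancer cells. RNA was sequenced in 12 libraries, 2 for each of 6 groups, so n = 2 for every group value below. MDA-MB-231 and Hs-578T are established human lines of the triple-negative class, named for the lack of estrogen receptor, progesterone receptor and HER2 amplification. Each line gave parental controls, cells labelled ERK5-ko and cells labelled MEK5DD. The MDA-MB-231 libraries came from passages 29 and 30 (parental control), 7 and 8 (ERK5-ko) and 10 and 11 (MEK5DD), and those of Hs-578T from passages 83 and 84 (parental control), 8 and 9 (ERK5-ko) and 8 and 9 (MEK5DD). The ERK5-ko cells were made with Cas9 and guides to MAPK7 and grown from single sorted cells. In MDA-MB-231 a single clone survived, and for Hs-578T the sources used here do not state which clone was sequenced. A difference between ERK5-ko and parental cells therefore cannot be told apart from a difference between a clone and the population it came from. MEK5DD cells carry a MEK5 that is always active. MEK5, encoded by MAP2K5, is the kinase that activates ERK5. Parental libraries serve as the controls for both labels of their line, so the comparisons with them are not independent. The 2 libraries of a group came from consecutive passages, so the p-values measure the spread between such libraries, which may be technical.

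ADAM proteins are membrane proteins with a metalloproteinase domain and a disintegrin domain, and those with an intact zinc-binding site cut other membrane proteins close to the cell surface, a process called ectodomain shedding. By shedding they release growth factors such as the ligands of the epidermal growth factor receptor and cleave receptors such as Notch. Other ADAMs lack the zinc-binding site and act in cell adhesion. ADAMTS proteins are secreted, carry thrombospondin repeats and cleave components of the extracellular matrix, among them the proteoglycans versican and aggrecan, the amino-terminal propeptides of fibrillar procollagens, and cartilage oligomeric matrix protein (COMP). In breast cancer these families have been studied for growth factor release, invasion and matrix remodelling.

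Total reads per library lay between 20248162 and 27791195, and from 92.05% to 94.5% of them fell on listed genes. Replicates differed by more than counting noise, with a chi-square per degree of freedom from 2.82 in MDA-MB-231 MEK5DD to 42.2 in Hs-578T MEK5DD. The ERK5-ko label did not come with less MAPK7 RNA. It stood at 13.3 and 14.3 RPKM in MDA-MB-231 parental controls against 16.3 and 17.8 RPKM in ERK5-ko, and at 14 and 16 RPKM in Hs-578T parental controls against 17.8 and 18.1 RPKM in ERK5-ko. A value for the whole gene does not show a small edit in an exon, so it does not check the label, and the directions given below for ERK5-ko rest on the labels. MAP2K5 RNA was 12.9 and 13.6 RPKM in MDA-MB-231 parental controls and 188 and 184 RPKM in MEK5DD, 14.1-fold higher (log2 fold change 3.77, adjusted p = 3.31e-10, limma). In Hs-578T it was 14.6 and 16.9 RPKM in parental controls and 21.3 and 23.8 RPKM in MEK5DD, a log2 fold change of 0.50 (adjusted p = 0.00492) that stayed under the 1.5-fold threshold. The rise of MAP2K5 RNA was thus much smaller in Hs-578T than in MDA-MB-231. Of the markers of the triple-negative class, ESR1 and PGR were under the filter in all groups, and ERBB2 had a mean between 31.5 RPKM and 55.9 RPKM.

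RPKM is scaled to gene length, so a comparison of levels between genes relies on the length of each gene model. In MDA-MB-231 parental controls ADAM8 had the highest mean level, 236 RPKM, followed by ADAM10 at 209 RPKM, ADAM9 at 141 RPKM and ADAM15 at 109 RPKM. ADAM8 and ADAM10 lay further apart than the spread of their libraries, which were 230 and 241 RPKM for ADAM8 and 219 and 200 RPKM for ADAM10. Their reads were close, at 7793 and 9180 for ADAM8 and 8747 and 9001 for ADAM10. The order of ADAM8 and ADAM10 in RPKM thus rests on gene model lengths of 1368 and 1618 bases. In Hs-578T parental controls ADAM9 was highest at 277 RPKM, followed by ADAM12 at 201 RPKM, ADAM10 at 107 RPKM and ADAM15 at 88.8 RPKM. The libraries of ADAM9 (260 and 295 RPKM) and of ADAM12 (165 and 238 RPKM) did not overlap, and those of ADAM10 (97.7 and 117 RPKM) and ADAM15 (92.3 and 85.3 RPKM) did not either. A mean of at least 1 RPKM was reached by 16 members in MDA-MB-231 and by 21 in Hs-578T parental controls. Summed over the 37 members, the level was 845 and 832 RPKM in MDA-MB-231 parental controls, 885 and 830 RPKM in ERK5-ko and 524 and 522 RPKM in MEK5DD. In Hs-578T the sums were 849 and 1034 RPKM in parental controls, 1080 and 1111 RPKM in ERK5-ko and 769 and 1011 RPKM in MEK5DD. Only the MDA-MB-231 MEK5DD libraries lay far below their parental controls. In bulk RNA, fewer cells with a transcript and less of it per cell cannot be told apart.

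**Figure D1:**
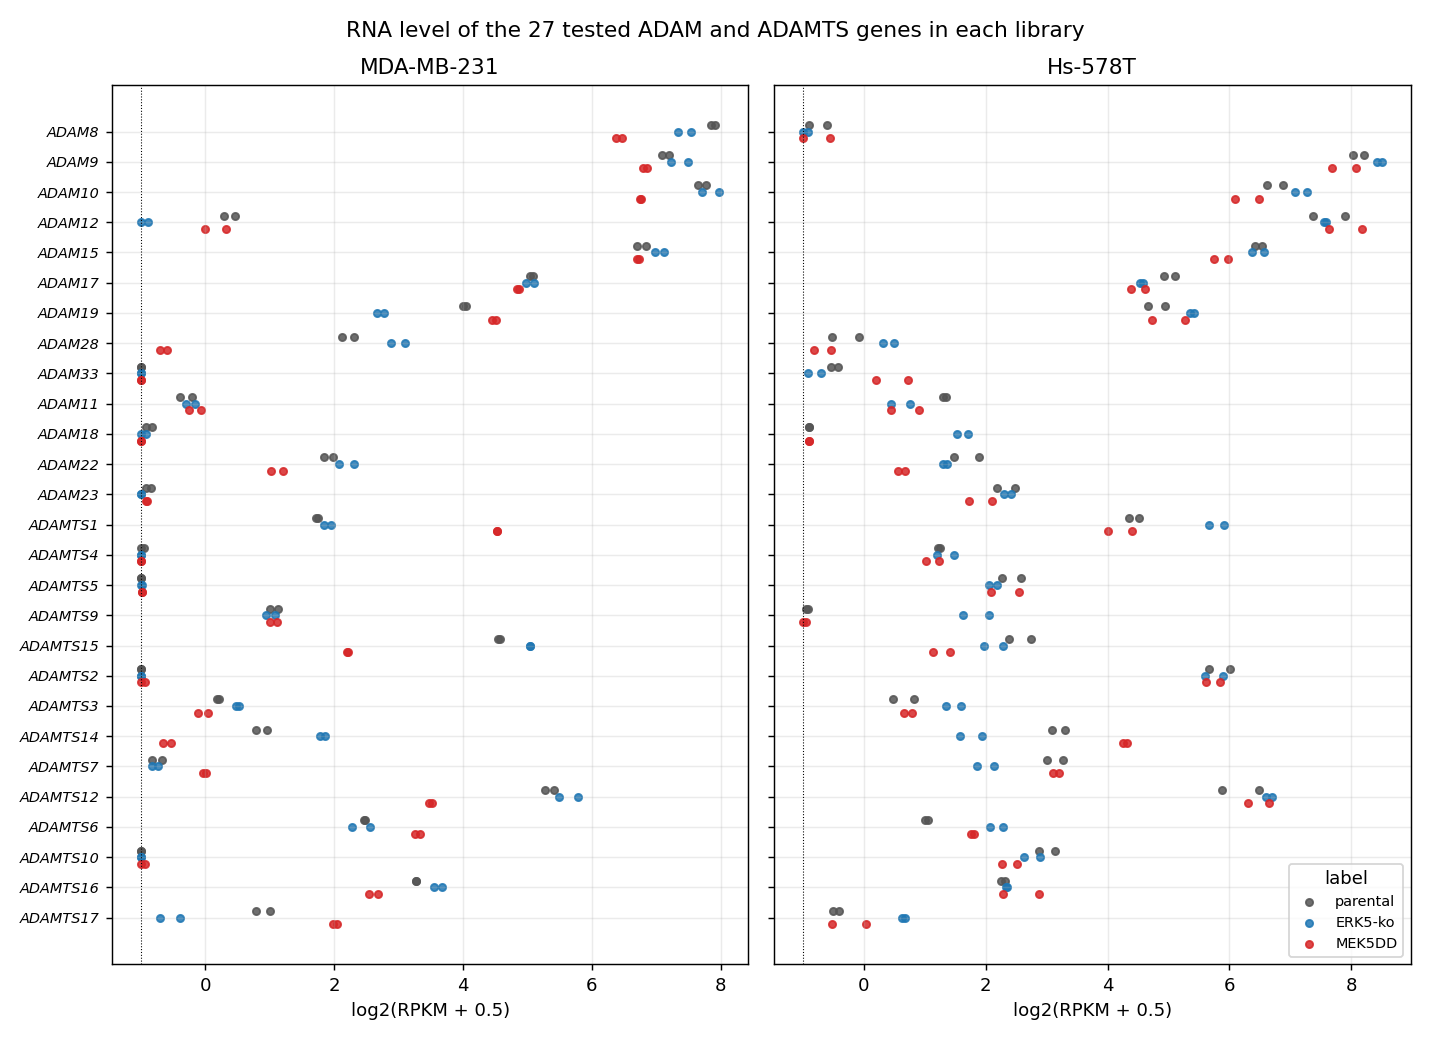
RNA level of the 27 tested members as log2(RPKM + 0.5) in each library, in MDA-MB-231 (left) and Hs-578T (right), with 1 point a library coloured by label and a dotted line at the value of 0 RPKM. ADAM8 lies far to the right in MDA-MB-231 and near the dotted line in Hs-578T. ADAM12 and ADAMTS2 are high in Hs-578T and low in MDA-MB-231.

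The other 10 members stayed under the filter. ADAM7, ADAM20, ADAM21, ADAM29, ADAM32, ADAMTS8, ADAMTS13, ADAMTS18, ADAMTS19 and ADAMTS20 had highest single-library levels of 0.0166, 0.0349, 0.273, 0.0728, 0.572, 0.109, 0.141, 0.0754, 0.0268 and 0.0275 RPKM, respectively. Among them ADAMTS13, which cleaves von Willebrand factor, is known as a product of the liver. ADAM5, a pseudogene with a matching symbol, was not a member because it is not protein coding.

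Differences between the parental lines were tested first, with limma on log2(RPKM + 0.5) over 13737 protein-coding genes. Calls needed an adjusted p below 0.05, together with a ratio of more than 1.5 for a rise or of less than 0.5 for a fall, and rose, fell and changed are used of called genes. For genes near 0 RPKM, adding 0.5 makes the fold smaller than the true one. In MDA-MB-231, 8 of 27 members were higher than in Hs-578T, beside 34.1% of all tested genes, and 10 were lower, beside 15.4% of all tested genes. Of those called lower, ADAM11, ADAM23, ADAMTS2, ADAMTS4, ADAMTS5, ADAMTS7 and ADAMTS10 passed the filter only through Hs-578T libraries. ADAM8, called higher, passed it only through MDA-MB-231 libraries. For these members a test between the lines is not independent of the filter, and neither are the counts. The median log2 difference was -0.52 over the 27 members, or -0.78 with members absent from a line at their bound, and 0.19 over all tested genes. Another scaling of the libraries moved the median of all genes by -0.21 (median ratios) or -0.11 (quantiles), so small differences between the lines depend on the scaling, and with median ratios ADAM9, ADAM19 and ADAMTS12 would also be called lower in MDA-MB-231.

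ADAM8, a sheddase known from leukocytes and from aggressive breast cancers, was almost restricted to one line. It was at 230 and 241 RPKM in MDA-MB-231 and at 0.16 and 0.0353 RPKM in Hs-578T parental controls (log2 difference 8.64, SE 0.151, adjusted p = 7.4e-13). ADAM12, a sheddase of mesenchymal and muscle precursor cells, had the reverse pattern, with 0.873 and 0.723 RPKM in MDA-MB-231 and 165 and 238 RPKM in Hs-578T (log2 difference -7.26, SE 0.197, adjusted p = 1.91e-11). ADAMTS2, the main procollagen N-proteinase of skin and tendon, had no read in either MDA-MB-231 parental library and stood at 50.5 and 64.1 RPKM in Hs-578T. Against a floor of 3 reads per library, ADAMTS2 was at least 1019-fold lower in MDA-MB-231 (log2 difference -6.84, adjusted p = 2.24e-12). ADAM8 and ADAMTS2 each passed the filter only through the line where they were high, so their adjusted p is not independent of it.

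The same side of the line difference was shared by further matrix proteases. ADAMTS5, a major aggrecanase, had no read in MDA-MB-231 parental controls and 4.32 and 5.48 RPKM in Hs-578T, at least 387-fold lower. ADAMTS10, which associates with fibrillin microfibrils, likewise had no read in MDA-MB-231 and 6.83 and 8.29 RPKM in Hs-578T, at least 113-fold lower. ADAMTS4, the other major aggrecanase, had 2 reads in MDA-MB-231 parental controls and 324 in those of Hs-578T, a ratio of 195 with an exact 95% interval from 53.6 to 1619. These bounds and intervals cover counting error only. ADAM23, an adhesion protein without an active site, was 111-fold lower in MDA-MB-231 (0.0257 and 0.0571 RPKM against 4.06 and 5.1 RPKM).

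Some broadly expressed sheddases were near in level in both lines. ADAM17, also called TACE, the main sheddase of tumour necrosis factor and of several receptor ligands, stood at 32.3 and 33.4 RPKM in MDA-MB-231 and at 29.8 and 34.1 RPKM in Hs-578T, with overlapping libraries. ADAM15 was at 104 and 114 RPKM in MDA-MB-231 and at 92.3 and 85.3 RPKM in Hs-578T, a log2 difference of 0.30 (adjusted p = 0.0225). ADAM10, the sheddase of Notch and of cadherins, was 1.95-fold higher in MDA-MB-231 (adjusted p = 7.39e-05).

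Set against parental controls, the libraries labelled ERK5-ko showed few called members in MDA-MB-231. ADAM28 and ADAMTS14 rose (2 of 27, beside 2.8% of all tested genes), and ADAM12, ADAM19 and ADAMTS17 fell (3 of 27, beside 1.07%). In Hs-578T ERK5-ko, ADAM18, ADAM28, ADAMTS1, ADAMTS3, ADAMTS6, ADAMTS9 and ADAMTS17 rose (7 of 27, beside 9.35%), and ADAMTS7 and ADAMTS14 fell (2 of 27, beside 3.27%). In MDA-MB-231 MEK5DD, ADAMTS1, ADAMTS6, ADAMTS7 and ADAMTS17 rose (4 of 27, beside 7.64%), and ADAM8, ADAM28, ADAMTS12, ADAMTS14 and ADAMTS15 fell (5 of 27, beside 6.31%). In Hs-578T MEK5DD, ADAM33, ADAMTS6 and ADAMTS14 rose (3 of 27, beside 2.9%), and ADAM22 and ADAMTS15 fell (2 of 27, beside 1.49%). ADAM18 and ADAM33 are in these counts although each passed the filter only through the group where it was high. The median log2 fold change of the 27 members was 0.00 in MDA-MB-231 ERK5-ko, 0.02 in Hs-578T ERK5-ko, -0.05 in MDA-MB-231 MEK5DD and -0.10 in Hs-578T MEK5DD. Over all tested genes the medians were -0.04, 0.01, -0.01 and -0.08, respectively. Members were called in both directions in each of these comparisons, so the called members did not move in one direction as a family. The MDA-MB-231 medians do not decide this. They include members with few or no reads in that line, such as ADAM33 and ADAMTS2, whose log2 fold changes stay small whatever the label. For 1 gene alone, permuting 2 and 2 libraries exactly gives no two-sided p below 0.333, so the calls rest on the limma fit, which shares the spread across genes and all 12 libraries.

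On the adjusted p alone, without a fold threshold, the counts of members are given with the share of all tested genes in parentheses. In MDA-MB-231 ERK5-ko, 3 (6.91%) above and 3 (10.4%) below the parental controls passed. For Hs-578T ERK5-ko these were 9 (19.7%) above and 5 (19.7%) below, for MDA-MB-231 MEK5DD 5 (17.5%) above and 8 (23.8%) below, and for Hs-578T MEK5DD 3 (6.44%) above and 8 (17%) below. Setting ERK5-ko against MEK5DD gave 11 (27.1%) above and 6 (27.9%) below in MDA-MB-231 and 14 (30.7%) above and 3 (19.2%) below in Hs-578T. Between the parental lines, MDA-MB-231 had 9 (46%) above and 15 (31.3%) below Hs-578T. Members that passed the filter only through the group where they were high, such as ADAM18 and ADAM33, are in these counts.

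**Figure D2:**
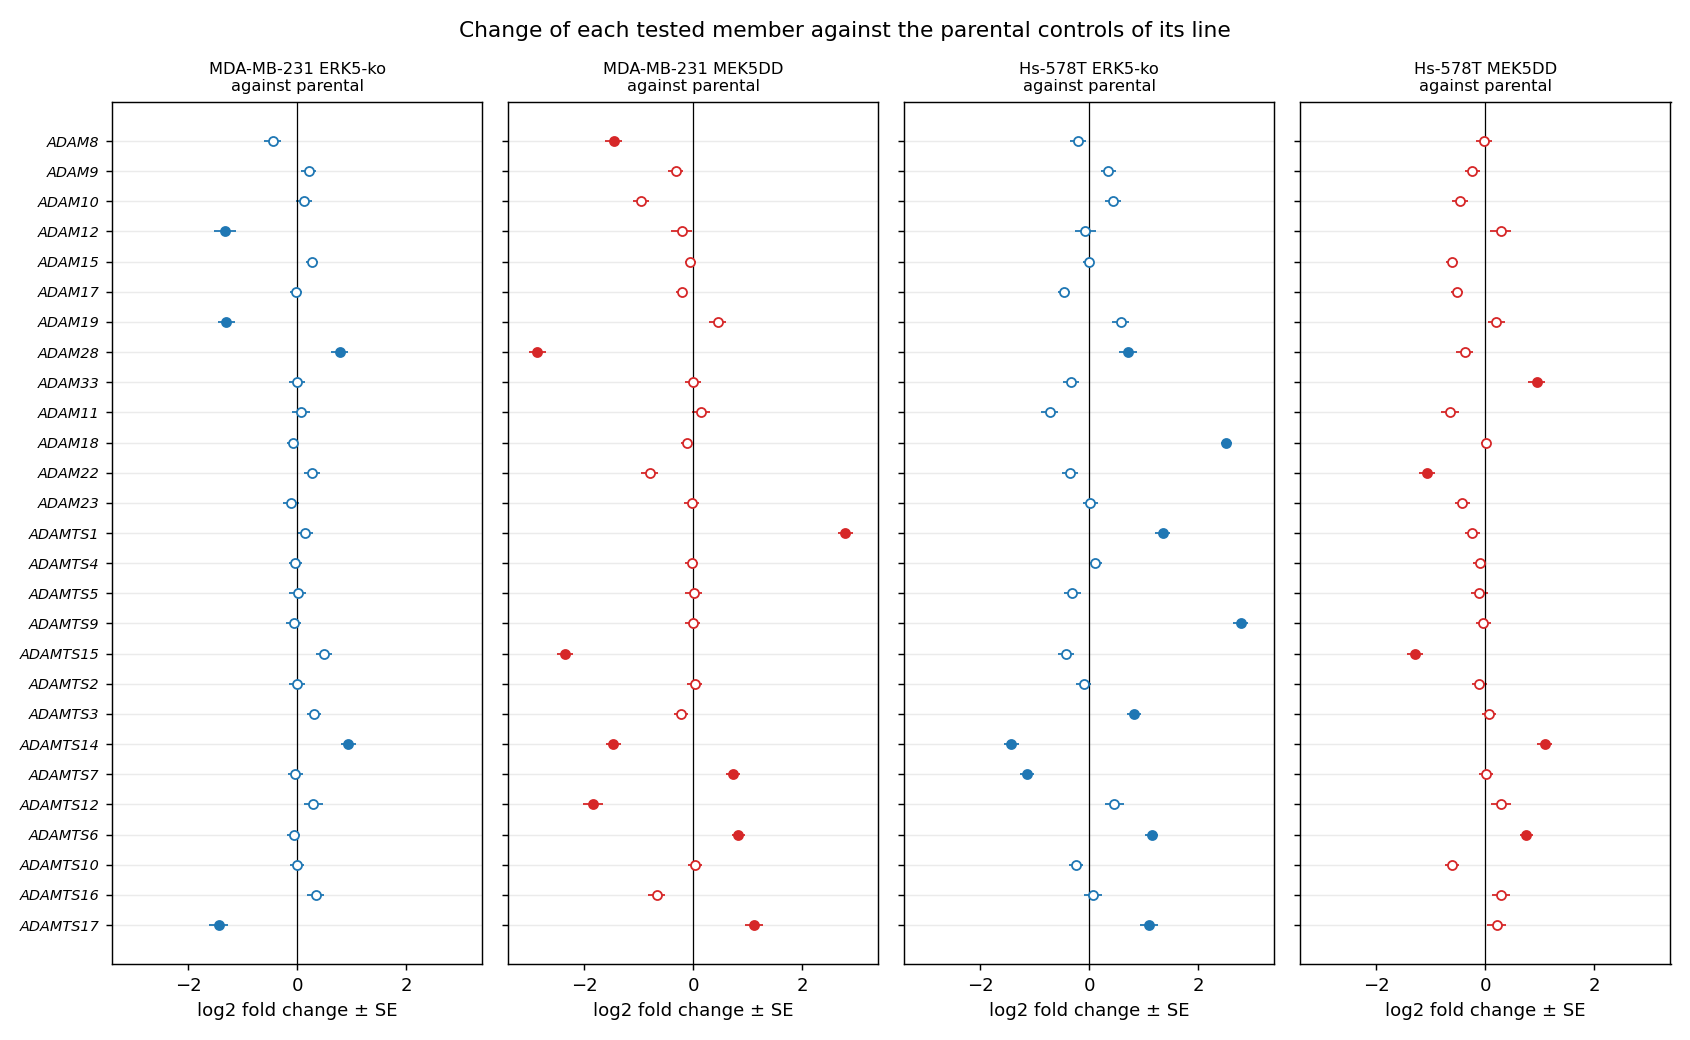
Log2 fold change of the 27 tested members against the parental controls of their line, with bars of 1 SE from limma and 2 libraries a group. Filled points are members called higher or lower, and open points are not called. In the ERK5-ko panels, ADAMTS14 and ADAMTS17 lie on opposite sides of 0 in the 2 lines.

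Among the 9 tested ADAMs with an active site, ADAM8 had the largest difference from parental controls in RPKM, though not in fold. It stood at 230 and 241 RPKM in MDA-MB-231 parental controls, 161 and 185 RPKM in ERK5-ko and 82.8 and 87.8 RPKM in MEK5DD. Its MEK5DD libraries were below all others of the line, and the difference from parental controls was 2.77-fold (log2 fold change -1.46, SE 0.151, adjusted p = 1.43e-05). ADAM8 (ENSG00000151651.15) is encoded on chromosome 10 from 133262403 to 133276868 (GRCh38, the build of all gene positions here). In Hs-578T no library had more than 5 reads of ADAM8, and no change could be detected at this depth.

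ADAM19, a sheddase of neuregulins, fell in MDA-MB-231 ERK5-ko. It was at 16.1 and 15.5 RPKM in parental controls, 6.36 and 5.87 RPKM in ERK5-ko and 22.3 and 21.3 RPKM in MEK5DD, 3 groups that did not overlap. The decrease in ERK5-ko was 2.58-fold (log2 fold change -1.30, SE 0.154, adjusted p = 0.000245). In Hs-578T it was at 24.8 and 30.3 RPKM in parental controls, 42.1 and 40.3 RPKM in ERK5-ko and 26.1 and 38.2 RPKM in MEK5DD, with a log2 fold change of 0.58 in ERK5-ko (adjusted p = 0.0117) that was just under the 1.5-fold threshold and passed it without Hs-578T parental replicate 2. ADAM19 (ENSG00000135074.15, chromosome 5, 157395534 to 157575775) overlaps an unnamed same-strand transcript, CTB-109A12.1, whose highest level was 0.81 RPKM.

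ADAM12, already scarce in MDA-MB-231, was close to absent in its libraries labelled ERK5-ko. Parental controls had 0.873 and 0.723 RPKM, ERK5-ko 0 and 0.0393 RPKM, and MEK5DD 0.754 and 0.495 RPKM. The pooled counts were 85 reads in parental controls and 2 in ERK5-ko, a ratio of 38.5 with an exact 95% interval from 10.3 to 323 (log2 fold change -1.32, SE 0.197, adjusted p = 0.00105). With a pseudocount of 1 the log2 fold change was -0.82, under the fold threshold. In Hs-578T, where ADAM12 was abundant, it was at 165 and 238 RPKM in parental controls, 187 and 191 RPKM in ERK5-ko and 199 and 289 RPKM in MEK5DD, and the parental range overlapped both others. Of 7 tested genes within 500000 bases of ADAM12 (chromosome 10, 126012381 to 126388455), FANK1 rose in MDA-MB-231 ERK5-ko (log2 fold change 0.66, adjusted p = 0.0391) and none of the 7 fell.

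ADAM28, a sheddase with secreted forms, was the member with the deepest fall in MDA-MB-231 MEK5DD. It is encoded on chromosome 8 from 24294040 to 24359018 (ENSG00000042980.12). Its level was 3.87 and 4.43 RPKM in parental controls, 8.08 and 6.88 RPKM in ERK5-ko and 0.162 and 0.117 RPKM in MEK5DD, with no overlap between the groups. MEK5DD was 29.7-fold lower than parental controls (log2 fold change -2.86, SE 0.16, adjusted p = 1.02e-07) and rested on 6 and 5 reads. ERK5-ko was 1.8-fold higher (log2 fold change 0.78, adjusted p = 0.00673). This call was lost without MDA-MB-231 parental replicate 1 (adjusted p = 0.0708), without ERK5-ko replicate 1 (adjusted p = 0.0646) and with a pseudocount of 0.1 (adjusted p = 0.0917).

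ADAM28 was also higher in Hs-578T ERK5-ko, from a low level. It stood at 0.199 and 0.44 RPKM in parental controls, 0.744 and 0.914 RPKM in ERK5-ko and 0.0643 and 0.19 RPKM in MEK5DD. The ERK5-ko libraries were above the others, 2.59-fold over parental controls (log2 fold change 0.71, SE 0.16, adjusted p = 0.00474). The call was lost without Hs-578T ERK5-ko replicate 2 (adjusted p = 0.0534), without Hs-578T parental replicate 1, where the log2 fold change was 0.50, and with a pseudocount of 1, where it was 0.48.

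ADAM33, a gene known from asthma genetics, is given here although its highest group mean was under 1 RPKM, a choice made after its values were seen. It had no read in any MDA-MB-231 library. In Hs-578T it was at 0.245 and 0.191 RPKM in parental controls, 0.113 and 0.0272 RPKM in ERK5-ko and 1.16 and 0.642 RPKM in MEK5DD. The MEK5DD libraries were 4.12-fold above parental controls (log2 fold change 0.94). ADAM33 passed the filter only through these MEK5DD libraries, so a test of this difference is likewise not independent of it.

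ADAM9, ADAM10, ADAM15 and ADAM17, the broadly expressed sheddases, passed neither fold threshold in any of the 4 comparisons with parental controls. ADAM10 came closest, with 219 and 200 RPKM in MDA-MB-231 parental controls, 252 and 209 RPKM in ERK5-ko and 107 and 108 RPKM in MEK5DD. Its ratio in MEK5DD was 0.513 (log2 fold change -0.96, SE 0.145, adjusted p = 0.000267), just above the threshold of 0.5, and quantile normalization (-1.03) or leaving out MDA-MB-231 parental replicate 2 (-1.02) took it past that threshold. In Hs-578T, ADAM10 stood at 97.7 and 117 RPKM in parental controls, 135 and 154 RPKM in ERK5-ko and 67.5 and 89.4 RPKM in MEK5DD, 3 groups without overlap and with log2 fold changes of 0.43 (adjusted p = 0.0352) and -0.46 (adjusted p = 0.0404).

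ADAM17 was at 32.3 and 33.4 RPKM in MDA-MB-231 parental controls, 34 and 30.9 RPKM in ERK5-ko and 28.8 and 28 RPKM in MEK5DD. In Hs-578T both altered groups were below parental controls, with 29.8 and 34.1 RPKM in parental controls, 22.7 and 23.5 RPKM in ERK5-ko and 20.3 and 24 RPKM in MEK5DD. The log2 fold changes were -0.46 (adjusted p = 0.00523) and -0.52 (adjusted p = 0.00491), under the fold threshold. ADAM17 overlaps IAH1 on the opposite strand, whose highest level was 59.9 RPKM. Reads of a pair on opposite strands can be separated only by counting with strand. The libraries were stranded, but the sources used here do not say whether strand was used in counting.

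ADAM9 ranged from 110 RPKM to 179 RPKM over the MDA-MB-231 libraries and from 204 RPKM to 361 RPKM over those of Hs-578T. ADAM15 ranged from 104 RPKM to 138 RPKM and from 53.5 RPKM to 94.5 RPKM. In Hs-578T MEK5DD, ADAM15 had a log2 fold change of -0.61 (adjusted p = 0.00208), also under the fold threshold.

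Of the 4 tested ADAMs without an active site, ADAM18 had the largest log2 fold change against the parental controls of its line. ADAM18 (ENSG00000168619.15, chromosome 8, 39584489 to 39730064) is known as a protein of sperm and their precursors. In Hs-578T it had 1 read in each parental and each MEK5DD library and 83 and 89 reads in ERK5-ko, at 2.38 and 2.76 RPKM. In MDA-MB-231 no library had more than 2 reads. The ratio of ERK5-ko to parental reads in Hs-578T was 74.3, with an exact 95% interval from 20.2 to 618 (log2 fold change 2.52). ADAM18 passed the filter on low values only through these ERK5-ko libraries, so a test of this difference is not independent of the filter. The tested genes within 500000 bases of ADAM18 were ADAM9, at a log2 fold change of 0.35 (adjusted p = 0.0635), and IDO1, at -0.33 (adjusted p = 0.2), and neither was called.

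ADAM22, a receptor for the secreted protein LGI1 in neurons, was lower in MEK5DD libraries of both lines. It was at 3.47 and 3.09 RPKM in MDA-MB-231 parental controls, 4.47 and 3.7 RPKM in ERK5-ko and 1.82 and 1.53 RPKM in MEK5DD. The Hs-578T levels of ADAM22 were 2.3 and 3.2 RPKM in parental controls, 1.96 and 2.06 RPKM in ERK5-ko and 0.967 and 1.1 RPKM in MEK5DD. The decrease was called in Hs-578T (2.66-fold, log2 fold change -1.07, SE 0.149, adjusted p = 0.000573). In MDA-MB-231 the log2 fold change of -0.80 (adjusted p = 0.00119) did not reach the fold threshold. The Hs-578T call fell under the fold threshold without Hs-578T parental replicate 2 and with a pseudocount of 1, at a log2 fold change of -0.87 in each case.

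ADAM11 and ADAM23, 2 further adhesion proteins, were not called in any comparison with parental controls, except that ADAM23, at most 0.0571 RPKM in MDA-MB-231, was called lower in ERK5-ko of that line with voom on recovered reads (-2.76, adjusted p = 0.0308). ADAM11 ranged from 0.261 RPKM to 0.452 RPKM in MDA-MB-231. The Hs-578T values of ADAM11 were 2.05 and 1.95 RPKM in parental controls, 1.18 and 0.856 RPKM in ERK5-ko and 1.38 and 0.861 RPKM in MEK5DD. Its parental libraries in Hs-578T were above the other 4 (log2 fold changes -0.73 with adjusted p = 0.00411 and -0.65 with adjusted p = 0.0143). ADAM23 ranged from 2.81 RPKM to 5.1 RPKM in Hs-578T.

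The ADAMTS proteoglycanases, which cut versican and aggrecan, held the largest rises of the family. ADAMTS1 (ENSG00000154734.14, chromosome 21, 26835747 to 26845409) stood at 2.88 and 2.78 RPKM in MDA-MB-231 parental controls, 3.35 and 3.08 RPKM in ERK5-ko and 22.7 and 22.6 RPKM in MEK5DD. In Hs-578T it stood at 19.8 and 22.5 RPKM in parental controls, 50 and 59.4 RPKM in ERK5-ko and 15.5 and 20.6 RPKM in MEK5DD. It was therefore the MEK5DD libraries of one line and the ERK5-ko libraries of the other that were above their controls. The rise was 7.99-fold in MDA-MB-231 MEK5DD (log2 fold change 2.79, SE 0.137, adjusted p = 3.45e-08) and 2.58-fold in Hs-578T ERK5-ko (log2 fold change 1.35, SE 0.137, adjusted p = 2.41e-05).

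ADAMTS9, a proteoglycanase that is also needed for the formation of cilia, was near absent in Hs-578T except under the ERK5-ko label. It had 2 and 1 reads in parental controls, 221 and 290 reads in ERK5-ko and 0 and 1 reads in MEK5DD, which for ERK5-ko corresponded to 2.57 and 3.65 RPKM. The ratio of ERK5-ko to parental reads was 147, with an exact 95% interval from 50 to 716 (log2 fold change 2.78, SE 0.138, adjusted p = 1.08e-07). In MDA-MB-231 it lay between 1.42 RPKM and 1.68 RPKM in all 6 libraries, and the groups overlapped. ADAMTS9 (ENSG00000163638.13, chromosome 3, 64515654 to 64688000) overlaps the antisense genes ADAMTS9-AS2 and ADAMTS9-AS1, whose highest levels were 0.23 RPKM and 0.0793 RPKM. Of its tested neighbours within 500000 bases, PSMD6 had a log2 fold change of 0.33 (adjusted p = 0.00769) and PRICKLE2 of 0.44 (adjusted p = 0.0796), and neither reached the fold threshold.

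ADAMTS15, a versican-cleaving protease, was lower in the MEK5DD libraries of both lines. In MDA-MB-231 it was at 22.8 and 23.3 RPKM in parental controls, 32.4 and 32.5 RPKM in ERK5-ko and 4.08 and 4.15 RPKM in MEK5DD. Levels in Hs-578T were 4.72 and 6.2 RPKM in parental controls, 4.37 and 3.43 RPKM in ERK5-ko and 1.7 and 2.15 RPKM in MEK5DD. The decrease was 5.6-fold in MDA-MB-231 (log2 fold change -2.35, SE 0.146, adjusted p = 2.34e-07) and 2.84-fold in Hs-578T (log2 fold change -1.29, SE 0.146, adjusted p = 0.000151). In ERK5-ko the log2 fold changes were 0.49 (adjusted p = 0.041) and -0.43 (adjusted p = 0.0345), both under the fold thresholds. Of the remaining proteoglycanases, ADAMTS4 ranged from 1.52 RPKM to 2.28 RPKM and ADAMTS5 from 3.65 RPKM to 5.48 RPKM in Hs-578T, with no call.

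**Figure D3:**
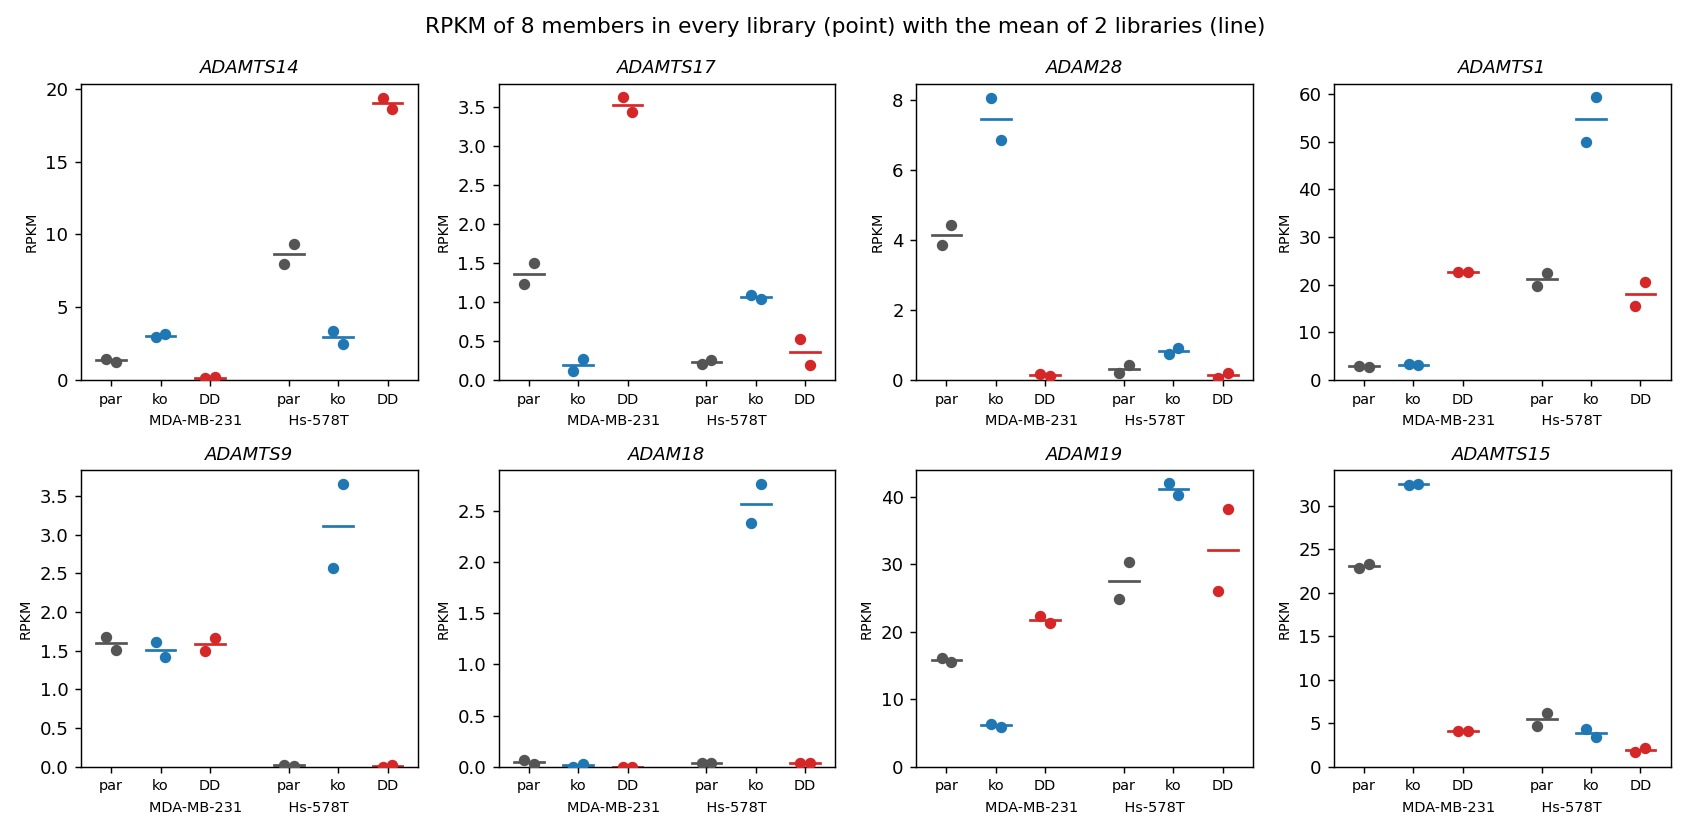
RPKM of 8 members in every library (points), with a line at the mean of the 2 libraries of a group, for parental controls (par), ERK5-ko (ko) and MEK5DD (DD) of each line, and each axis starting at 0. ADAM18 and ADAMTS9 are near 0 in Hs-578T except in the ERK5-ko libraries, and the order of the groups of ADAMTS14 is reversed between the lines.

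The procollagen N-proteinases remove the amino-terminal propeptide of fibrillar procollagens before fibrils assemble, and ADAMTS14 (ENSG00000138316.10, chromosome 10, 70672803 to 70762441) was the one that changed in all 4 comparisons with parental controls. It stood at 1.45 and 1.23 RPKM in MDA-MB-231 parental controls, 2.93 and 3.13 RPKM in ERK5-ko and 0.135 and 0.193 RPKM in MEK5DD. In Hs-578T it stood at 7.97 and 9.35 RPKM in parental controls, 3.35 and 2.49 RPKM in ERK5-ko and 19.4 and 18.6 RPKM in MEK5DD. The 3 groups of a line did not overlap, and their order was opposite in the lines. In MDA-MB-231 the log2 fold changes were 0.94 (SE 0.139, adjusted p = 0.000983) in ERK5-ko and -1.47 (adjusted p = 7.17e-06) in MEK5DD. In Hs-578T they were -1.43 (SE 0.139, adjusted p = 1.75e-05) in ERK5-ko and 1.09 (adjusted p = 0.000315) in MEK5DD.

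The sequence upstream of ADAMTS14 is shown because this gene changed with both labels and in opposite directions between the lines. Beside it are those of ADAMTS17, which shared the reversal for ERK5-ko, and of ADAMTS12, the member with a match to the loose AP-1 pattern given below. RefSeq (GRCh38.p14) gave a promoter for 23 of the 37 members and for 16 of the 27 tested ones. Each sequence below is the 250 bases before the RefSeq start site of the gene, read 5′ to 3′ on the strand of the gene, at chr10:70672256-70672505 (plus strand), chr15:100341976-100342225 (minus strand) and chr5:33891991-33892240 (minus strand). Capitals mark matches to TGANTCA, a loose pattern for the AP-1 element in which N is any base. They also mark CACCC or its reverse complement GGGTG, the box bound by Krüppel-like factors. Both were searched because AP-1 and Krüppel-like factors act downstream of ERK5. In ADAMTS12 the match to TGANTCA reads TGAATCA, and stricter forms of the AP-1 element were not searched. The RefSeq start sites differ from the gene positions listed with the RPKM values. Those positions start ADAMTS12 at 33892192 and ADAMTS17 at 100342005, inside their windows, and ADAMTS14 at 70672803, beyond its window. The TGAATCA match therefore lies inside ADAMTS12 as listed there.
ADAMTS14: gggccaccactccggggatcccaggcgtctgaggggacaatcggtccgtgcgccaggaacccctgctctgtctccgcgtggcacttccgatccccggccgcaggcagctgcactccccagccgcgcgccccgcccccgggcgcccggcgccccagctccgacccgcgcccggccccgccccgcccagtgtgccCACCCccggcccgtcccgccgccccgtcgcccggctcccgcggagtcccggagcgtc
ADAMTS17: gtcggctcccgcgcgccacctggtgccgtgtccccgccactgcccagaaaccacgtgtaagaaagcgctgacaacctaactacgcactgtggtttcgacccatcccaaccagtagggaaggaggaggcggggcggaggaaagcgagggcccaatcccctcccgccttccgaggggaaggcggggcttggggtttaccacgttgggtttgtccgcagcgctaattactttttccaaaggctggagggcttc
ADAMTS12: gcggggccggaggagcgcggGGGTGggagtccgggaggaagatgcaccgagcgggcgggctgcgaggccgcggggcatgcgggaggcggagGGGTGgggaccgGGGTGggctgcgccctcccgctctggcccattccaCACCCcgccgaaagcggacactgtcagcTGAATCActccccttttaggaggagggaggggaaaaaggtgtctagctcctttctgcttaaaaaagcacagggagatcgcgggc
Over all 35116 promoters of the same length, TGANTCA on either strand was present in 6.57% and in 1 of the 23 member promoters, that of ADAMTS12. CACCC on either strand was present in 54.7% of all promoters and in 14 of 23 of the members. The MEF2 motif, bound by another factor downstream of ERK5, was present in 0.515% of all promoters and in 0 of 23. The window of ADAMTS17 held none of the 3. A match or its absence describes these letters only, and binding was not measured.

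ADAMTS3, which processes procollagen II and vascular endothelial growth factor C, rose in Hs-578T ERK5-ko. It was at 0.896 and 1.26 RPKM in parental controls, 2.05 and 2.51 RPKM in ERK5-ko and 1.08 and 1.22 RPKM in MEK5DD, with the ERK5-ko libraries above all others. The rise was 2.12-fold (log2 fold change 0.82, SE 0.134, adjusted p = 0.000627). In MDA-MB-231 it ranged from 0.429 RPKM to 0.936 RPKM with no call. ADAMTS2 ranged from 48 RPKM to 64.1 RPKM in Hs-578T and its groups overlapped.

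ADAMTS7 and ADAMTS12 cleave COMP. ADAMTS12, among the most abundant secreted members, stood at 41.9 and 38.1 RPKM in MDA-MB-231 parental controls, 54.7 and 44.5 RPKM in ERK5-ko and 11 and 10.6 RPKM in MEK5DD. The MEK5DD libraries were 3.71-fold below parental controls (log2 fold change -1.84, SE 0.178, adjusted p = 8.51e-06). In Hs-578T it ranged from 58.5 RPKM to 103 RPKM with no call, but without Hs-578T parental replicate 2 it was called higher in ERK5-ko (log2 fold change 0.76, adjusted p = 0.0037) and in MEK5DD (0.59, adjusted p = 0.0263).

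ADAMTS7 stood at 7.51 and 9.15 RPKM in Hs-578T parental controls, 3.91 and 3.11 RPKM in ERK5-ko and 8.07 and 8.7 RPKM in MEK5DD. The ERK5-ko libraries were 2.37-fold lower (log2 fold change -1.14, SE 0.133, adjusted p = 6.34e-05), a call that without Hs-578T ERK5-ko replicate 2 no longer met the fold threshold. In MDA-MB-231 it rose in MEK5DD from 0.0665 and 0.13 RPKM to 0.478 and 0.51 RPKM (log2 fold change 0.73, SE 0.133, adjusted p = 0.000947), on 35 and 43 reads against 5 and 11. This call was lost with a pseudocount of 1 (log2 fold change 0.44). ADAMTS7 overlaps MORF4L1 on the opposite strand over 945 bases, and MORF4L1 reached 370 RPKM.

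ADAMTS6 and ADAMTS10 associate with fibrillin microfibrils. ADAMTS6 was the member that rose in 3 of the 4 comparisons. It stood at 5.06 and 5.04 RPKM in MDA-MB-231 parental controls, 5.36 and 4.36 RPKM in ERK5-ko and 9.63 and 9.05 RPKM in MEK5DD. In Hs-578T it stood at 1.58 and 1.5 RPKM in parental controls, 3.72 and 4.37 RPKM in ERK5-ko and 3.01 and 2.87 RPKM in MEK5DD. MEK5DD libraries were 1.85-fold (log2 fold change 0.83, adjusted p = 0.000206) and 1.91-fold (0.75, adjusted p = 0.00127) above the controls of their line, and Hs-578T ERK5-ko libraries were 2.62-fold above (1.15, SE 0.12, adjusted p = 2.89e-05). ADAMTS10 ranged from 4.33 RPKM to 8.29 RPKM in Hs-578T, where its log2 fold change in MEK5DD was -0.61 (adjusted p = 0.00697), under the fold threshold.

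ADAMTS17, a protease tied to short stature and eye disease in people, also changed in opposite directions with ERK5-ko. It is encoded on chromosome 15 from 99971589 to 100342005 (ENSG00000140470.13). In MDA-MB-231 it was at 1.23 and 1.5 RPKM in parental controls, 0.117 and 0.265 RPKM in ERK5-ko and 3.63 and 3.44 RPKM in MEK5DD, with no overlap. In Hs-578T it was at 0.203 and 0.256 RPKM in parental controls, 1.09 and 1.04 RPKM in ERK5-ko and 0.523 and 0.194 RPKM in MEK5DD. It fell 7.14-fold in MDA-MB-231 ERK5-ko (log2 fold change -1.44, SE 0.171, adjusted p = 0.000251) and rose 4.63-fold in Hs-578T ERK5-ko (1.10, SE 0.171, adjusted p = 0.000463). MDA-MB-231 MEK5DD was 2.59-fold higher (SE 0.171, adjusted p = 0.000296). The fall in MDA-MB-231 rested on 4 and 10 reads in ERK5-ko and was under the fold threshold with a pseudocount of 1 (-0.99). ADAMTS16 had 9.12 and 9.19 RPKM in MDA-MB-231 parental controls, 12.3 and 11.2 RPKM in ERK5-ko and 5.31 and 5.88 RPKM in MEK5DD (log2 fold change -0.67, adjusted p = 0.00564, under the fold threshold).

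ERK5-ko and MEK5DD libraries were also compared with each other. The difference of their means does not use the parental controls, but the spread behind the p-values comes from all 12 libraries. In MDA-MB-231, 8 of 27 members were higher in ERK5-ko (17.5% of all tested genes) and 4 were lower (6.12%). In Hs-578T, 10 were higher (15.3%) and 3 were lower (3.96%). ADAM18 is among the 10 and ADAM33 among the 3, although each passed the filter only through the group where it was high. The median log2 difference of the members was 0.00 in MDA-MB-231 and for Hs-578T 0.38, beside -0.02 and 0.09 over all tested genes. ADAM10, ADAM22, ADAM28 and ADAMTS15 were higher in ERK5-ko than in MEK5DD in both lines. For ADAM28 the difference was 53.5-fold in MDA-MB-231 (log2 difference 3.64, adjusted p = 7.95e-09) and 6.51-fold in Hs-578T (1.09, adjusted p = 0.000208). For ADAMTS15 it was 7.9-fold (2.84, adjusted p = 2.74e-08) and 2.03-fold (0.86, adjusted p = 0.000567). ADAM15, higher in Hs-578T ERK5-ko at a log2 difference of 0.61, was under the fold threshold with both other scalings (0.49 and 0.51) and without Hs-578T ERK5-ko replicate 1 (0.51) or MEK5DD replicate 1 (0.49). ADAM12, lower in MDA-MB-231 ERK5-ko at -1.11, was under the fold threshold without MDA-MB-231 MEK5DD replicate 1 (-0.94) and with a pseudocount of 1 (-0.67). In Hs-578T, ADAM22 (0.57) and ADAM33 (-0.82) were under it with a pseudocount of 1.

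The difference of each change between the lines was tested as a contrast of contrasts, with the adjusted p alone as the criterion. For ERK5-ko, the change was more positive in MDA-MB-231 for 6 of 27 members (18.3% of all tested genes) and more negative for 8 (21.5%). For MEK5DD it was more positive for 6 (21.3%) and more negative for 7 (18.2%). As shares of the 27 members these were 22.2% and 29.6% for ERK5-ko, and 22.2% and 25.9% for MEK5DD. ADAM18 (for ERK5-ko) and ADAM33 (for MEK5DD) are counted, although each passed the filter only through the group where it was high. ADAMTS14 differed in both, by 2.37 on the log2 scale for ERK5-ko (SE 0.197, adjusted p = 7.59e-06) and by -2.56 for MEK5DD (SE 0.197, adjusted p = 2.75e-06). ADAMTS17 differed by -2.54 for ERK5-ko (adjusted p = 1.89e-05) and ADAMTS1 by 3.03 for MEK5DD (adjusted p = 6.96e-07). When same-numbered libraries were paired as blocks, the MEK5DD differences of ADAM10 (-0.50, adjusted p = 0.00745, against 0.0741 without the block) and of ADAM17 (0.31, adjusted p = 0.0489, against 0.117) also passed. ADAM9, ADAM10, ADAM23, ADAMTS2, ADAMTS4 and ADAMTS5 were among the members with no difference past the threshold for either label without the block, although ADAM10 passed for MEK5DD with median-ratio scaling (-0.55, adjusted p = 0.0396) and quantile normalization (-0.67, adjusted p = 0.0258). ADAM10 also passed for MEK5DD without Hs-578T parental replicate 2 (-0.63, adjusted p = 0.0399) or MEK5DD replicate 1 (-0.70, adjusted p = 0.0105). ADAM23 passed for ERK5-ko with voom on recovered reads (-2.79, adjusted p = 0.0181) and for MEK5DD without Hs-578T MEK5DD replicate 2 (0.58, adjusted p = 0.0232).

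**Figure D4:**
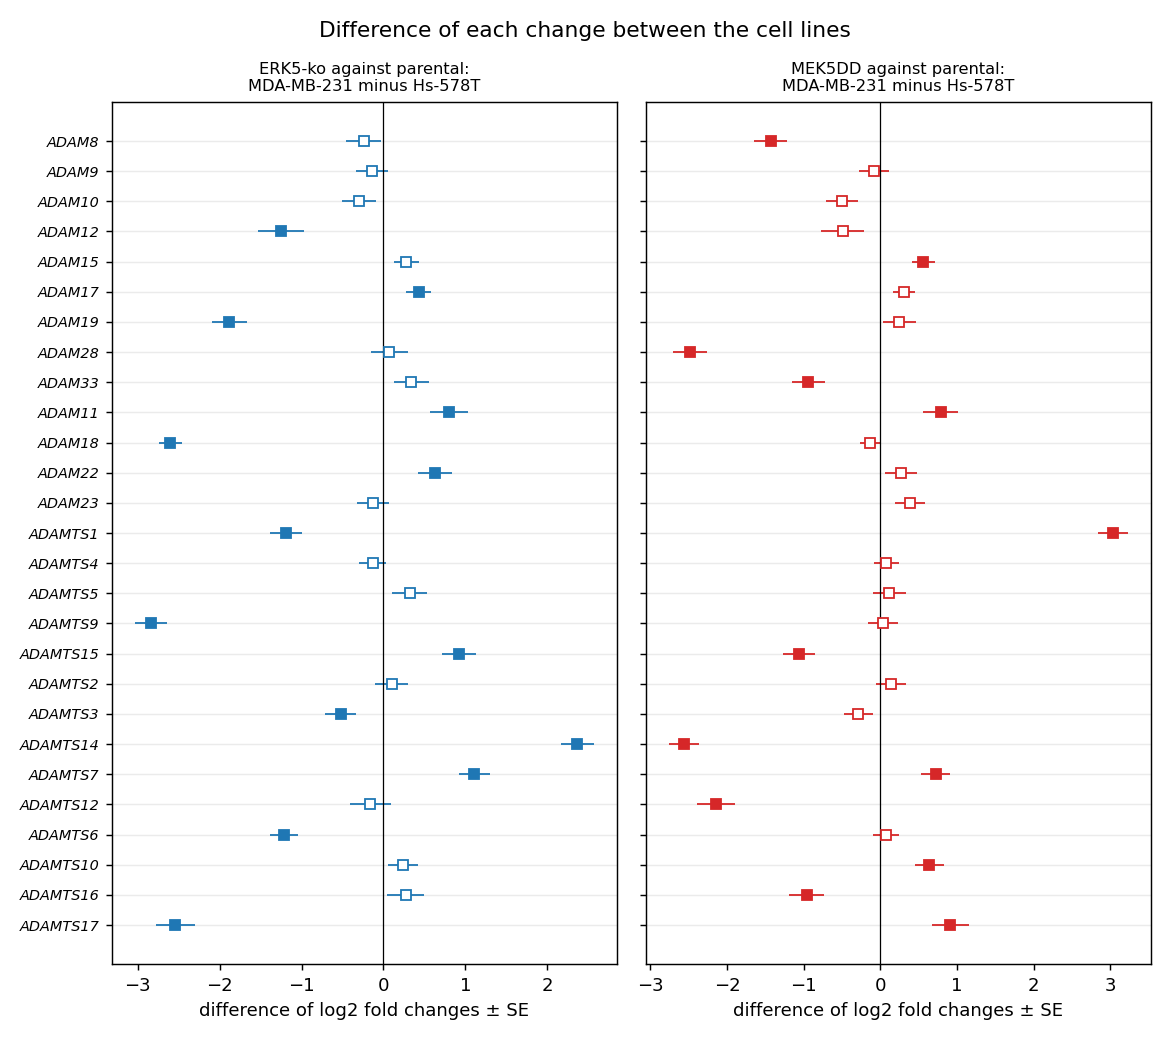
Difference between the lines (MDA-MB-231 minus Hs-578T) of each member's log2 fold change against parental controls, for ERK5-ko (left) and MEK5DD (right), with bars of 1 SE from limma. Filled squares have an adjusted p under 0.05. ADAMTS14 lies at 2.37 for ERK5-ko and at -2.56 for MEK5DD.

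The inhibitors of these proteases were followed beside them. For this list and those that follow, the shares of all tested genes called in each comparison are those given above for the members. None of the 5 tested inhibitors was called with ERK5-ko in either line. TIMP3, the tissue inhibitor that binds the matrix and blocks ADAM10, ADAM17 and several ADAMTS proteases, fell in MDA-MB-231 MEK5DD from a mean of 108 RPKM to 23.6 RPKM (log2 fold change -2.16, SE 0.0923, adjusted p = 1.22e-08). In Hs-578T MEK5DD it had a mean of 309 RPKM beside 218 RPKM in parental controls (0.51, adjusted p = 0.00274, under the fold threshold). Neither TIMP1 nor TIMP2, TIMP4 or RECK was called in a comparison with parental controls.

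Of 13 genes that mature or transport ADAM10 and ADAM17, 11 were tested. RHBDF2 (iRhom2), which carries ADAM17 to the cell surface, was called lower in 3 of the 4 comparisons with parental controls. Its mean fell from 39.9 RPKM to 18.5 RPKM in MDA-MB-231 MEK5DD (log2 fold change -1.09, adjusted p = 1.44e-05) and, in Hs-578T, from 23.6 RPKM to 10.9 RPKM in ERK5-ko (-1.08, adjusted p = 2.88e-05) and 11 RPKM in MEK5DD (-1.07, adjusted p = 8.94e-05). In MDA-MB-231 ERK5-ko its mean was 41.3 RPKM. Its relative RHBDF1 rose in MDA-MB-231 MEK5DD, from 21.2 RPKM to 35.5 RPKM (0.73, adjusted p = 0.000227). TSPAN15, a tetraspanin that directs ADAM10 to cadherins, fell there from 26.3 RPKM to 7.75 RPKM (-1.70, adjusted p = 9.11e-07) and rose in MDA-MB-231 ERK5-ko to 42 RPKM (0.67, adjusted p = 0.00403), where TSPAN10 was the other gene of the list to rise. TSPAN14 fell in MDA-MB-231 MEK5DD and TSPAN10 in Hs-578T ERK5-ko.

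Among 25 known membrane substrates of ADAM sheddases, 23 were tested. In MDA-MB-231 ERK5-ko 3 rose (beside 2.8% of all tested genes) and none fell (1.07%). All 3 were ligands of the epidermal growth factor receptor family. Other tested ligands of that family, TGFA, HBEGF and NRG1, were not called. Their means went from 137 RPKM to 133 RPKM, from 52.2 RPKM to 48.1 RPKM and from 13.8 RPKM to 11.1 RPKM, respectively. EREG (epiregulin) rose from a mean of 8.28 RPKM to 50 RPKM (log2 fold change 2.52, adjusted p = 6.75e-08), AREG (amphiregulin) from 63.9 RPKM to 198 RPKM (1.62, adjusted p = 2.64e-05), and BTC (betacellulin) from 2.14 RPKM to 4.24 RPKM (0.84, adjusted p = 0.00916). In MDA-MB-231 MEK5DD 4 fell and 1 rose. The TNF receptor gene TNFRSF1B fell from 15.7 RPKM to 1.77 RPKM (-2.84, adjusted p = 1.93e-08), EREG to 1.14 RPKM (-2.43, adjusted p = 7.09e-09), AREG to 22.1 RPKM (-1.52, adjusted p = 5.32e-06) and TGFA from 137 RPKM to 49.5 RPKM (-1.46, adjusted p = 2.36e-06).

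In Hs-578T ERK5-ko 6 of the 23 membrane substrates rose (beside 9.35% of all tested genes) and 1 fell (3.27%). L1CAM, a neural adhesion molecule shed by ADAM10, fell from 87.3 RPKM to 11.9 RPKM (log2 fold change -2.82, adjusted p = 1.4e-07). NRG1 (neuregulin 1) rose from 19.5 RPKM to 44 RPKM (1.15, adjusted p = 0.000604), and the receptor gene MET from 64 RPKM to 111 RPKM (0.78, adjusted p = 0.00272). In Hs-578T MEK5DD 2 rose and 2 fell, the latter being the Notch ligand JAG1 (-1.29, adjusted p = 0.000702) and L1CAM (-1.14, adjusted p = 0.00031).

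Of 13 secreted substrates of ADAMTS proteases, 9 were tested. In MDA-MB-231 ERK5-ko 3 fell (beside 1.07% of all tested genes) and none rose (2.8%). COL1A2, a chain of collagen I, fell from 6.8 RPKM to 1.63 RPKM (log2 fold change -1.80, SE 0.322, adjusted p = 0.00325), FBN1 (fibrillin 1) from 3.7 RPKM to 1.44 RPKM (-1.12, adjusted p = 0.0227) and LTBP1, which stores latent transforming growth factor beta in the matrix, from 9.71 RPKM to 4.22 RPKM (-1.11, adjusted p = 0.000171). In MDA-MB-231 MEK5DD the collagen genes COL1A2 (-2.87, adjusted p = 2.74e-05) and COL5A1 (-1.60, adjusted p = 3.52e-05) fell, while FBN1 (0.97, adjusted p = 0.0207) and FN1, the fibronectin gene (0.66, adjusted p = 0.0418), rose. The 2 MEK5DD libraries of COL1A2 were far apart, at 0.116 and 1.11 RPKM on 5 and 55 reads, so the size of its fall is uncertain. In Hs-578T ERK5-ko COL3A1 fell from 2417 RPKM to 1067 RPKM (-1.18, adjusted p = 0.000311), and in Hs-578T MEK5DD FBN2 rose from 3.28 RPKM to 5.66 RPKM (0.71, adjusted p = 0.0259).

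Of 8 ADAMTS-like genes, which resemble ADAMTS proteases but lack the catalytic domain, 6 were tested. In Hs-578T ERK5-ko 2 rose, among them THSD4, a fibrillin-associated protein, from 5.68 RPKM to 12.6 RPKM (log2 fold change 1.10, adjusted p = 0.000345). None was called in MDA-MB-231 ERK5-ko, 1 fell in MDA-MB-231 MEK5DD and 1 rose in Hs-578T MEK5DD. LRP1, the endocytic receptor that clears several ADAMTS proteases, was not called in any of these comparisons.

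Some markers of cell state moved with the labels as well. Of 4 epithelial markers, KRT8 and KRT18 rose in MDA-MB-231 ERK5-ko and CDH1 and KRT18 in Hs-578T ERK5-ko, where KRT8 had a mean of 28.8 RPKM beside 48.8 RPKM (log2 fold change -0.75, adjusted p = 0.00013, under the fold threshold), while CDH1 and EPCAM fell in MDA-MB-231 MEK5DD. The mean of CDH1 over all libraries was under 1 RPKM, and it is named here as a defining marker after its values were seen. In MDA-MB-231 the mean of CDH1 was 0.645 RPKM in parental controls and 0.61 RPKM in ERK5-ko. The summed epithelial level was 1052 and 1148 RPKM in MDA-MB-231 parental controls, 1860 and 1843 RPKM in ERK5-ko and 931 and 965 RPKM in MEK5DD. In Hs-578T it was 264 and 189 RPKM, 577 and 626 RPKM, and 229 and 254 RPKM, respectively. Of 4 mesenchymal markers, FN1 and VIM rose in MDA-MB-231 MEK5DD and CDH2 in Hs-578T ERK5-ko. The summed mesenchymal level was 1684 and 1834 RPKM in MDA-MB-231 parental controls, 1709 and 1654 RPKM in ERK5-ko and 3535 and 3612 RPKM in MEK5DD. In Hs-578T the groups overlapped, with 5612 and 6885 RPKM in parental controls, 6850 and 6537 RPKM in ERK5-ko and 5520 and 6798 RPKM in MEK5DD. The part of these marker changes in the changes of the proteases was not tested. Leukocyte markers PTPRC and CD3E and the endothelial markers CDH5 and CD34 were under the filter. CD14, a leukocyte marker that passed the filter, had a mean of at most 1.99 RPKM and fell in Hs-578T ERK5-ko (log2 fold change -1.09, adjusted p = 0.000118), and PECAM1 was at most 0.768 RPKM in MDA-MB-231 and between 2.89 RPKM and 6.39 RPKM in Hs-578T groups.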

How the data were processed

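RNA from 12 libraries of 2 cell lines was sequenced with a stranded mRNA kit from cells at 70% confluence. The deposited values are RPKM per gene, computed by the authors from their reads and not scaled further between libraries. The submitters' processing notes name bcl2fastq, Trimmomatic 0.32, TopHat2 2.1.1, R 3.3.1, DESeq2 1.12.4 and GRCh38. The counting tool and annotation are not given in the sources used here. Whole reads were recovered from the steps of the RPKM values for 100% of 32152 genes. Libraries held 20248162 to 27791195 reads.

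Values were tested as log2(RPKM + 0.5) with limma 3.58.1 (trend) in R 4.3.3, using 6 group means, 12 libraries and 6 residual degrees of freedom, with Benjamini-Hochberg adjustment over 13737 protein-coding genes of at least 0.5 RPKM in at least 2 libraries. Groups with no reads were set at a floor of 3 reads per library, and groups with 1 to 3 reads were given as a count ratio with its exact 95% interval (scipy 1.17.1). The fit was tested on simulated data. Figures were drawn with matplotlib 3.10.9.

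Members and gene lists were chosen with earlier results of these data known. Members past the filter were named where a group mean reached 1 RPKM, in full where called against parental controls. From each list at most 4 called genes were named, those with the largest log2 fold change and a mean of at least 1 RPKM. Same-numbered libraries of a line deviated together (correlations from 0.107 to 0.541 over 6 pairs of groups), so the replicate number was taken to pair them, and it was fitted as a block in an alternative. The other alternatives changed the pseudocount, filter, scaling, fold threshold and gene types, used 1 line at a time or voom on recovered reads, and left out each library in turn.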

Additional observations from a re-analysis of the deposited data

Results flagged for a closer look

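The members below changed differently in the 2 lines by limma's test of the difference itself (MDA-MB-231 minus Hs-578T, log2 scale, 2 libraries a group, adjusted p under 0.05). For ERK5-ko the difference was positive for ADAMTS14 (2.37), ADAMTS7 (1.11), ADAMTS15 (0.92), ADAM11 (0.80), ADAM22 (0.63) and ADAM17 (0.43). It was negative for ADAMTS9 (-2.84), ADAM18 (-2.60), ADAMTS17 (-2.54), ADAM19 (-1.88), ADAM12 (-1.25), ADAMTS6 (-1.21), ADAMTS1 (-1.19) and ADAMTS3 (-0.52).

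For MEK5DD the difference was positive for ADAMTS1 (3.03), ADAMTS17 (0.91), ADAM11 (0.79), ADAMTS7 (0.72), ADAMTS10 (0.64) and ADAM15 (0.56). It was negative for ADAMTS14 (-2.56), ADAM28 (-2.48), ADAMTS12 (-2.14), ADAM8 (-1.43), ADAMTS15 (-1.06), ADAMTS16 (-0.96) and ADAM33 (-0.94). Some of these differences rest almost wholly on 1 line: ADAM8 was near 0 in Hs-578T, and in MDA-MB-231 ADAM33 had no read, ADAM18 had at most 2 reads in a library and ADAMTS10 at most 0.0211 RPKM. The same holds for ADAMTS7 with ERK5-ko, which in MDA-MB-231 had 5 and 11 reads in parental controls and 7 and 5 in ERK5-ko. ADAM18 and ADAM33 also passed the filter only through the group where they were high. MAP2K5 RNA was 14.1-fold higher in MDA-MB-231 MEK5DD and 1.43-fold higher in Hs-578T MEK5DD, and its part in these differences was not tested.

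Several differences depended on 1 library. Leaving out 1 library took the adjusted p past the threshold for ERK5-ko in ADAM17 (8 of the 12 libraries, largest adjusted p = 0.12), ADAM22 (6 libraries, 0.115), ADAMTS3 (8 libraries, 0.171) and ADAM11 (3 libraries, 0.0775). For MEK5DD it did so in ADAMTS10 (4 libraries, 0.061), ADAM11 (MDA-MB-231 parental replicate 1 or MEK5DD replicate 1, 0.0706), and, without MDA-MB-231 parental replicate 1, in ADAM15 (0.0592) and ADAMTS17 (0.0519).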

How the results depend on the processing

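None of the 129 member values that passed the adjusted p of 0.05 changed sign under any alternative run. Members called higher in MDA-MB-231 ERK5-ko numbered 1 with a pseudocount of 0.1, and those called lower numbered 1 with a pseudocount of 1. Members lower in Hs-578T ERK5-ko numbered 5 with no fold threshold. Members lower in MDA-MB-231 MEK5DD numbered 8 with no fold threshold and 8 with symmetric folds of 1.5. Members lower in Hs-578T MEK5DD numbered 1 with a pseudocount of 1, 8 with no fold threshold and 5 with symmetric folds. The larger counts follow from the lower fold demanded. With a pseudocount of 1, ADAM12 (-0.82) and ADAMTS17 (-0.99) in MDA-MB-231 ERK5-ko and ADAM22 (-0.87) in Hs-578T MEK5DD missed only the fold threshold. With a pseudocount of 0.1, ADAM28 in MDA-MB-231 ERK5-ko met the fold threshold (0.83) and missed the adjusted p (0.0917, limma).

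Leaving out 1 library at a time gave 1 to 2 members higher and 3 lower in MDA-MB-231 ERK5-ko, 6 to 9 and 1 to 2 in Hs-578T ERK5-ko, 4 and 5 to 6 in MDA-MB-231 MEK5DD, and 3 to 4 and 1 to 2 in Hs-578T MEK5DD. ERK5-ko against MEK5DD gave 8 to 9 and 3 to 5 in MDA-MB-231 and 9 to 13 and 3 in Hs-578T. The parental lines gave 8 and 10 to 12. The line differences gave 3 to 6 and 7 to 8 for ERK5-ko and 2 to 9 and 7 to 9 for MEK5DD.

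With the replicate block the line differences of MEK5DD numbered 7 positive and 8 negative, and the block lost 0 of 98 calls and changed no other count of called members. On the adjusted p alone it added 10 values in all. With voom on recovered reads the line difference was not called for ADAM8 (adjusted p = 0.587), ADAM33 (0.174), ADAMTS10 (0.198) and ADAMTS17 (0.229) for MEK5DD, or for ADAMTS7 (0.159), ADAM11 (0.0555) and ADAMTS3 (0.14) for ERK5-ko. Against parental controls, voom newly called ADAM23 in MDA-MB-231 ERK5-ko (-2.76), ADAM33 (-1.80) and ADAM19 (0.59) in Hs-578T ERK5-ko, and ADAM18 in MDA-MB-231 MEK5DD (-1.92). For ERK5-ko, the ADAMTS3 line difference was also lost with a pseudocount of 0.1 (adjusted p = 0.113), no filter (0.0579), median-ratio scaling (0.0597), quantile normalization (0.0517) and all gene types (0.0744), and that of ADAM22 with no filter (0.0552). For MEK5DD, those of ADAM8 (0.093) and ADAMTS17 (0.136) were lost with a pseudocount of 0.1. Depth limits members with few reads, and at 2 libraries a group the lone library left after an omission is assumed to vary like the other groups.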
